A study of Mus musculus with 11 samples.

Results

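The integrated stress response genes examined here were 9 genes that act with or under the transcription factor ATF4. They were taken by symbol as Atf4, Atf5, Ddit3, Trib3, Chac1, Ddit4, Sesn2, Asns and Vldlr, and all 9 were among the 23284 genes listed for each of 11 mouse embryonic stem cell (ESC) libraries. WT ESCs and ESCs carrying a triple knockout of Tet1, Tet2 and Tet3 (TKO), the dioxygenases that hydroxylate 5-methylcytosine, were taken untreated (0 h) or after 4 h in α-amanitin at 10 µg/ml, an inhibitor of RNA polymerase II. Each of these 4 groups had 2 libraries of ribodepleted total RNA, and 3 further WT libraries were made from polyadenylated (polyA) RNA. All cells were grown on gelatin in serum with LIF. The TKO cells were a line made earlier, so genotype and line cannot be told apart, and no library was taken after 4 h without the drug, so the drug and the time in culture cannot be told apart.

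In the integrated stress response, kinases that sense amino acid shortage, unfolded protein, double-stranded RNA or heme shortage phosphorylate the initiation factor eIF2α. Most translation then falls, while the ATF4 reading frame is translated more because of short upstream reading frames in its mRNA. ATF4 pairs with C/EBP proteins on response elements of genes for amino acid supply, redox balance and feedback, and ATF5 and CHOP (the product of Ddit3) act in the same pathway. Since the main control of ATF4 lies at translation, the mRNA levels below are not a measure of ATF4 protein or activity.

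Values are TPM, a length-corrected share of all the transcripts in a library. They were divided by a size factor for each library (scaled TPM), and changes are differences of log2(scaled TPM + 1), which understate the change of low genes. A gene passed when its Benjamini-Hochberg adjusted p from limma, over all genes tested, was under 0.05. Reads recovered from the TPM steps came to 24660356 to 28927892 per ribodepleted library and 71876832 to 81250105 per polyA library. Atf4 rested on 4247 to 7996 reads in the ribodepleted libraries and Asns on 6679 to 10830, but Ddit3 on 66 to 165 and Vldlr on 53 to 122. In TKO cells at 0 h, Tet1 stood at 22.5% and Tet2 at 14.4% of the WT level by limma (adjusted p = 1.45e-06 and adjusted p = 3.25e-07). Tet3 stood at 100% (adjusted p = 0.996 by limma), and whether these values lie inside the deleted parts is not given in the sources used here. The first principal component (74.9% of the variance) separated the genotypes and the second (14.5%) the treatment, on which TKO 4 h replicate 1 stood apart at -2.37, against -15.0 for replicate 2 and -15.1 and -12.1 in WT at 4 h. The calls on members in TKO cells at 4 h are therefore given with and without that library.

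RefSeq promoters, 250 bases before to 50 after a transcript start on GRCm38.p6, were found for all 9 genes, with a second start for Atf5 and for Vldlr. They were searched on both strands for TGATGNAA, the core of the C/EBP-ATF response element, and for TGACGTCA, the cAMP response element. No promoter of the 9 genes held both. TGATGNAA was found in 4 of the 11 promoters, belonging to Chac1, Trib3, Asns and Vldlr (second start), against 3.97% of all 32851 promoters of the same length. TGACGTCA was found in 0 of the 11, against 1.79% of all. The 4 promoters with a match are printed 5′ to 3′ on the gene's strand because they are the ones that carry the response element core, which is in capitals.
Asns, chr6:7693160-7693459, minus strand: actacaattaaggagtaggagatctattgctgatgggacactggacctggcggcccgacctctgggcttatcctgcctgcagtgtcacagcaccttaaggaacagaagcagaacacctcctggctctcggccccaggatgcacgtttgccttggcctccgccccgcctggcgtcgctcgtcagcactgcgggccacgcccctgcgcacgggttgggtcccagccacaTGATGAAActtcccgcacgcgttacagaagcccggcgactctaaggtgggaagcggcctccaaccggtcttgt
Chac1, chr2:119350992-119351291, plus strand: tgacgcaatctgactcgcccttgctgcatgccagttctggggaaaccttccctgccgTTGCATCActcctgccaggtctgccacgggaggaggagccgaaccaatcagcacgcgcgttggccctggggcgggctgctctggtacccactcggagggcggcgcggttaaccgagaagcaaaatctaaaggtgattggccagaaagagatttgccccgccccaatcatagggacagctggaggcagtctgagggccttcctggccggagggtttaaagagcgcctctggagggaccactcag
Trib3, chr2:152344011-152344310, minus strand: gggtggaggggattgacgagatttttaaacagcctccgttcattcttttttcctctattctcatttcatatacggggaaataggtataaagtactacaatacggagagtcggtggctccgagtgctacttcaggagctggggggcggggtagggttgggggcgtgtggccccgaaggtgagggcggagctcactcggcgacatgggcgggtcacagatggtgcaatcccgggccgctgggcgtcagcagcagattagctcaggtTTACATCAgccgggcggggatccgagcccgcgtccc
Vldlr, chr19:27216770-27217069, plus strand: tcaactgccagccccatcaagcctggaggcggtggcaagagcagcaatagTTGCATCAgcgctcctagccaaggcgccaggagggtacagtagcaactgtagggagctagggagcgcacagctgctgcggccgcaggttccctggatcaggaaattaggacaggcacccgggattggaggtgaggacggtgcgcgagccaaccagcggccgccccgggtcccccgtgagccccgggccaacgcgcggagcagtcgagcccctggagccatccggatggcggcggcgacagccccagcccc
In Asns the match, TGATGAAA, lay on the gene's strand and began 23 bases before the start. In Chac1 and Vldlr the match, TTGCATCA, lay on the opposite strand and began 193 and 200 bases before the start, and in Trib3 the match, TTACATCA, also on the opposite strand, began 14 bases after it. A match is a description of these letters only, and no binding was measured.

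In untreated WT ESCs the genes covered a wide range of levels. Asns, which makes asparagine from aspartate and glutamine, was highest at 343.3 ± 6.62 scaled TPM (SD, n = 2), followed by Atf4 at 300.9 ± 5.02. Sesn2 stood at 61.3 ± 1.28, Trib3 at 33.9 ± 0.125 and Ddit4 at 30.9 ± 4.39. Ddit3 and Chac1 were level, at 11.1 ± 0.508 and 11.03 ± 0.884, and Atf5 stood at 8.83 ± 0.933. Vldlr was lowest at 0.611 ± 0.00311. Trib3 and Ddit4 overlapped between libraries, as did Ddit3 and Chac1, whereas the other neighbours in this order did not. The plot of scaled TPM by library shows all 9 genes.

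**Figure D1:**
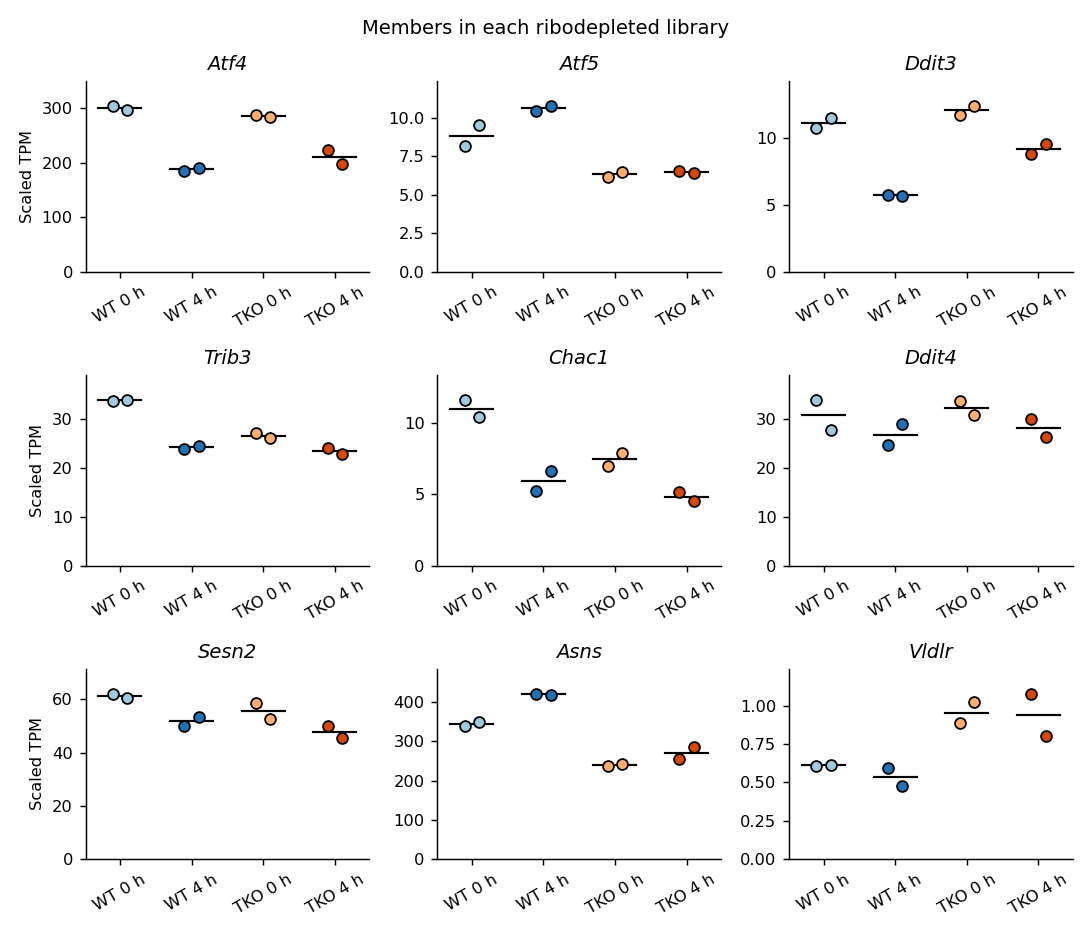
Scaled TPM of the 9 genes in the 8 ribodepleted libraries, with 1 panel per gene, a vertical axis from 0, 1 point per library and a line at each group's mean of 2. Atf4, Ddit3, Trib3 and Chac1 were lower at 4 h than at 0 h in WT without overlap, and Asns and Atf5 were lower in TKO than in WT at both times.

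The comparison of 4 h with 0 h addressed how the transcripts stood after 4 h in α-amanitin. How far synthesis by RNA polymerase II was blocked was not measured here. In WT cells, Atf4, Ddit3, Chac1, Trib3 and Sesn2 were lower at 4 h, Asns and Atf5 were higher, and Ddit4 did not pass. Of the 8 members tested (Vldlr fell below the minimum mean of 1 scaled TPM), 5 passed as lower and 2 as higher, where 15.8% of 12463 genes passed as lower and 21.9% as higher. The median of the 8 was -0.35, against 0.028 over all genes. Since the scaling holds the typical gene near 0, higher, lower, rise and fall at 4 h are relative to the other transcripts. A change common to all transcripts would not show. Without scaling, 398 genes passed as higher and 3142 as lower in place of 2730 and 1965, and 1 member was higher and 5 lower.

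Atf4 (chr15:80085614-80087970 on NCBIM37, plus strand), the transcription factor itself, had 304.5 and 297.4 scaled TPM in the WT 0 h libraries and 184.6 and 191.3 at 4 h. The groups did not overlap, and the 4 h level was 62.5% of the 0 h level (log2 change -0.68, SE 0.0591, adjusted p = 0.00129). Ddit3 (chr10:126727830-126733344, plus strand), which encodes CHOP, a C/EBP family factor of the late response, had 10.7 and 11.5 at 0 h and 5.77 and 5.66 at 4 h. It fell to 51.5% (log2 change -0.85, SE 0.0710, adjusted p = 0.00117). Ddit3 overlapped 68 bases of Mars, on the other strand, and the strand setting of the counting is not given in the sources used here. Atf5 (chr7:52067627-52072028, minus strand), a factor whose translation is controlled like that of ATF4, had 8.17 and 9.49 at 0 h and 10.5 and 10.8 at 4 h. It stood at 120% (log2 change 0.24, SE 0.0804, adjusted p = 0.0427), just inside the threshold, and the call was lost without scaling (log2 change 0.10, adjusted p = 0.441). Atf5 overlapped Nup62 and Il4i1 on the other strand, by 571 and 289 bases.

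Chac1 (chr2:119176965-119180117, plus strand), an enzyme that breaks down glutathione, had 11.7 and 10.4 at 0 h and 5.21 and 6.67 at 4 h. It fell to 53.8% (log2 change -0.80, SE 0.117, adjusted p = 0.00532), with libraries further apart than those of Ddit3. The order of Ddit3 and Chac1 turned without WT 0 h replicate 2 (-0.807 and -0.877) or WT 4 h replicate 2 (-0.832 and -0.947). Trib3 (chr2:152163158-152169768, minus strand), a pseudokinase that restrains ATF4 and CHOP in a feedback, had 33.9 and 34.0 at 0 h and 23.9 and 24.6 at 4 h. It fell to 71.4% (log2 change -0.47, SE 0.0509, adjusted p = 0.0024). Both carry the response element core shown above, as does Asns, which went the other way.

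Ddit4 (chr10:59412423-59414518, minus strand) and Sesn2 (chr4:132047947-132066416, minus strand) both encode inhibitors of mTORC1 signalling. Sesn2 had 62.2 and 60.4 at 0 h and 50.04 and 53.5 at 4 h, which was 84.5% (log2 change -0.24, SE 0.0671, adjusted p = 0.0243). Ddit4 had 34.0 and 27.8 at 0 h and 24.6 and 29.0 at 4 h, and its groups overlapped (log2 change -0.195, 95% interval -0.449 to 0.059, adjusted p = 0.196). Asns (chr6:7625169-7643254, minus strand) had 338.7 and 348.0 at 0 h and 421.4 and 417.3 at 4 h, without overlap. It rose to 122% (log2 change 0.29, SE 0.0558, adjusted p = 0.0081). With quantile normalisation the rise was 0.10 (adjusted p = 0.117).

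The calls of Atf4, Ddit3, Chac1 and Trib3 held when any 1 of the 4 WT libraries was left out, a fit in which the lone library is assumed to vary like the other groups. Sesn2 lost its call without any 1 of the 4 (adjusted p = 0.0508 to 0.164). Asns lost it without WT 0 h replicate 1 (adjusted p = 0.0522) or WT 4 h replicate 1 (0.054), and Atf5 without WT 0 h replicate 1 (0.244), WT 4 h replicate 1 (0.118) or WT 4 h replicate 2 (0.142). The members passing then numbered 4 without WT 0 h replicate 1 and 4 without WT 4 h replicate 1.

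Vldlr (chr19:27290974-27328721, plus strand), a lipoprotein receptor, had 0.609 and 0.613 scaled TPM in WT at 0 h and 0.596 and 0.477 at 4 h. In TKO it had 0.887 and 1.02 at 0 h and 1.08 and 0.8005 at 4 h. The TKO libraries were above all WT libraries, and the 2 times overlapped in TKO. In a limma fit without the filter on low values, the estimate for TKO against WT was 0.26 at 0 h, which did not pass (adjusted p = 0.0526). At 4 h it was 0.32 and passed (adjusted p = 0.0261). These estimates rested on 53 to 122 reads, and the 4 h fit was not repeated without TKO 4 h replicate 1.

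In TKO cells the same 8 members gave 2 estimates above 0 and 6 below, but only Atf4 passed, where 0.265% of 12463 genes passed as lower and 0% as higher. Atf4 had 287.1 and 284.3 scaled TPM at 0 h and 223.1 and 197.8 at 4 h, which was 73.7% (log2 change -0.44, SE 0.0591, adjusted p = 0.0444). Ddit3 had 11.7 and 12.4 at 0 h and 8.77 and 9.55 at 4 h (log2 change -0.36, SE 0.0710, adjusted p = 0.0822). Chac1 had 7.03 and 7.94 at 0 h and 5.15 and 4.53 at 4 h (log2 change -0.54, SE 0.117, adjusted p = 0.0929). The groups did not overlap for any of these 3 genes, nor for Trib3, Asns, Sesn2 and Ddit4, which did not pass. The share of all genes without overlap was not counted. Trib3 had 27.1 and 26.1 at 0 h and 24.1 and 23.0 at 4 h (log2 change -0.17, adjusted p = 0.129), and Asns had 238.4 and 241.3 at 0 h and 256.0 and 285.2 at 4 h (log2 change 0.17, adjusted p = 0.136). Sesn2, Ddit4 and Atf5 had adjusted p of 0.132, 0.3 and 0.828.

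These counts turned on TKO 4 h replicate 1. Without it, 2801 genes passed in place of 33, and 6 members passed: Atf4, Ddit3, Chac1, Trib3 and Sesn2 as lower and Asns as higher. Without TKO 4 h replicate 2, TKO 0 h replicate 1 or TKO 0 h replicate 2, 0 members passed, and Atf4 had adjusted p of 0.0758, 0.231 and 0.19, with 7, 1 and 0 genes passing in all. Without TKO 4 h replicate 1 the change was -0.61 for Chac1 (adjusted p = 0.0248), -0.31 for Ddit3 (0.033), -0.28 for Sesn2 (0.0341), 0.25 for Asns (0.0126) and -0.20 for Trib3 (0.0365).

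The difference between the genotypes in this response was tested as an interaction, the TKO change minus the WT change. It was 0.49 for Ddit3 (95% interval 0.26 to 0.71), 0.30 for Trib3 (0.14 to 0.46), 0.26 for Chac1 (-0.11 to 0.64) and 0.235 for Atf4 (0.045 to 0.425). It was -0.21 for Atf5, -0.12 for Asns, 0.03 for Sesn2 and 0.00 for Ddit4, whose interval ran from -0.36 to 0.36. Without TKO 4 h replicate 1 it was 0.545 for Ddit3, 0.27 for Trib3, 0.189 for Chac1 and 0.154 for Atf4, the last over 1.5 times smaller than with that library. None of the 8 passed by limma over all genes (adjusted p = 0.653 to 0.998), and 0% of 12463 genes passed. At an unadjusted p under 0.05 there were 3 members, Ddit3 (0.00104), Trib3 (0.0027) and Atf4 (0.0211), and 938 genes in all, which was 7.53%. With limma voom on recovered reads 0 genes passed and 971 were under that limit, so the response of these genes was not shown to differ between the genotypes.

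**Figure D2:**
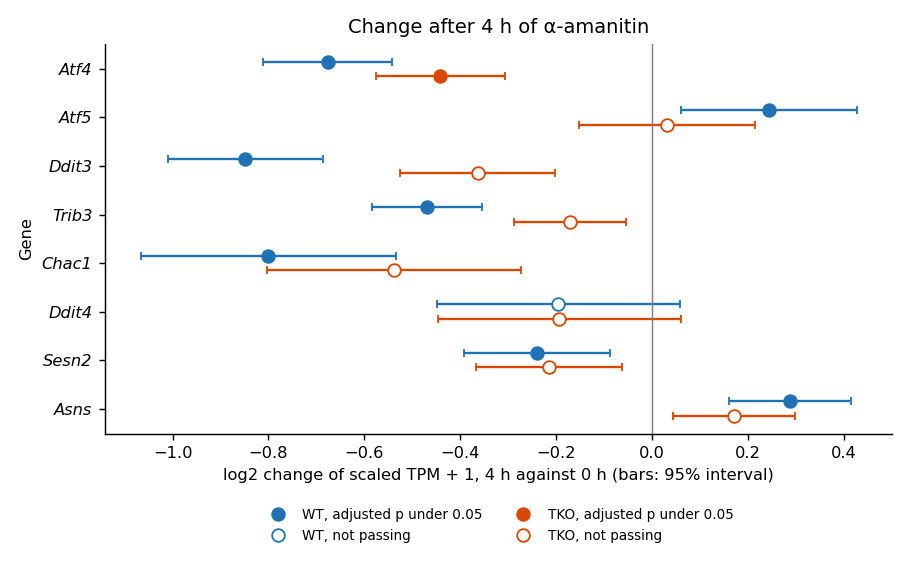
Log2 change of scaled TPM + 1 from 0 h to 4 h for the 8 members tested, in WT (blue) and TKO (orange), with 95% intervals from limma and filled points where the adjusted p was under 0.05. Ddit3 was at -0.85 in WT and -0.36 in TKO, and Atf4 passed in both genotypes.

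The wider pathway was described by lists of genes for the steps above and below ATF4. In WT cells at 4 h, 16 of 16 aminoacyl-tRNA synthetases passed as higher, with changes of 0.20 to 0.39 and a median of 0.26. Over all 12463 genes, 21.9% passed as higher and 15.8% as lower. Vars rose from 150.3 ± 3.16 to 196.7 ± 6.20 scaled TPM and Wars from 90.1 ± 2.27 to 111.9 ± 3.05. Of 11 enzymes of serine, one-carbon and transsulfuration metabolism, 9 were higher and 0 lower (median 0.29), among them Cbs, which joins homocysteine to serine (15.1 ± 0.228 to 20.3 ± 0.0462), and Cth, which releases cysteine (123.0 ± 3.93 to 155.2 ± 6.44). Their direction was that of Asns and the opposite of Atf4. Without scaling, which shifted the all-gene median to -0.11, and with quantile normalisation, 4 and 5 synthetases and 4 and 5 of these enzymes passed, all as higher. Without WT 4 h replicate 1, which cut all passing genes from 4695 to 409, 1 of 16 synthetases and 3 of 10 enzymes passed.

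Of 8 eIF2α kinases, phosphatase subunits and cofactors, 2 were higher and 2 lower, against 21.9% and 15.8% of all genes. The kinases Eif2ak1 (35.8 ± 0.647 to 42.7 ± 0.0171) and Eif2ak4 (16.9 ± 0.663 to 19.9 ± 0.0554) were higher, though not without scaling (adjusted p = 0.248 and 0.457). The phosphatase subunits Ppp1r15a (21.8 ± 0.922 to 16.3 ± 1.01) and Ppp1r15b (74.1 ± 3.12 to 56.0 ± 3.69), which return eIF2α to its active state, were both lower by 0.40 (adjusted p = 0.00702 and 0.00555). Of 8 subunits of eIF2 and eIF2B, 7 were higher and 0 lower (median 0.20), led by Eif2b5 (0.31, adjusted p = 0.00944) and Eif2s1 (0.27, adjusted p = 0.00652), but 1 passed without scaling. None of these 2 lists' calls held without WT 4 h replicate 1, where 0 of each passed.

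Of 11 tested partners and targets outside the members, 4 were lower and 2 higher, against 15.8% of all genes as lower and 21.9% as higher. Atf3, a stress-induced repressor, went from 2.71 ± 0.213 to 1.59 ± 0.218 scaled TPM and the stress cytokine gene Gdf15 from 2.60 ± 0.576 to 1.21 ± 0.241. Eif4ebp1, which restrains cap-dependent translation, went from 458.2 ± 13.9 to 574.2 ± 29.1 and Pck2 from 19.5 ± 0.855 to 22.5 ± 0.0111, which did not pass without scaling (adjusted p = 0.69). Of 8 tested amino acid transporters, Slc38a2 fell from 157.9 ± 8.55 to 98.8 ± 4.53 (log2 change -0.67, adjusted p = 0.00532), while Slc7a5 and Slc1a5 rose by 0.29 and 0.195, neither of which passed without scaling (adjusted p = 0.0794 and 0.74). Of 12 genes of the ATF6 and IRE1 arms of the unfolded protein response, 4 were higher and 2 lower, against the same shares of all genes. The lower pair were Herpud1 (-0.51, adjusted p = 0.00795) and Xbp1 (-0.48, adjusted p = 0.00385), while Sdf2l1 and Calr rose by 0.29 and 0.20 and did not pass without scaling (adjusted p = 0.222 and 0.489). Without WT 4 h replicate 1, 1 partner or target, 1 transporter and 1 gene of the ATF6 and IRE1 list passed, each as lower.

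In TKO cells 0 genes of any of these lists passed at 4 h, where 0.265% of 12463 genes passed as lower and 0% as higher. The median was 0.12 for the synthetases and 0.13 for the serine and one-carbon enzymes, against 0.013 over all genes. Without TKO 4 h replicate 1, some genes of these last 2 lists passed, all as higher. More of all genes also passed without that library, in both directions.

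**Figure D3:**
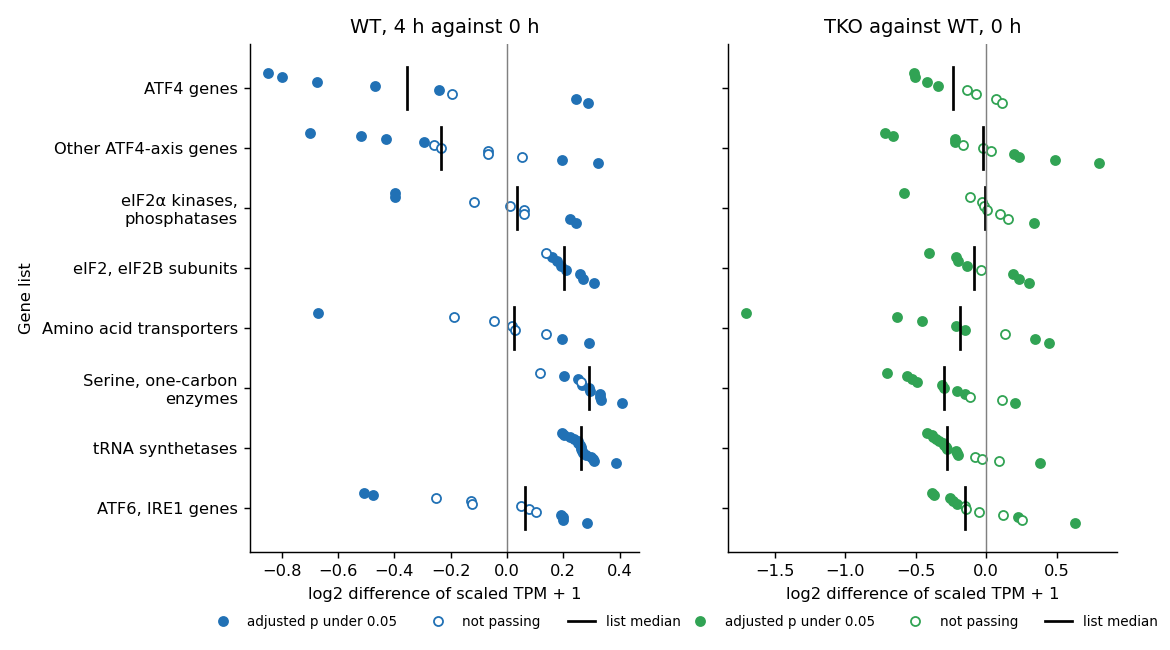
Log2 differences of scaled TPM + 1 for the 8 tested members and 7 pathway lists (vertical axis), in WT at 4 h against 0 h on the left and in TKO against WT at 0 h on the right, with 1 point per gene, filled where the adjusted p was under 0.05, and a bar at each list's median. The synthetases lay above 0 on the left (16 of 16) and mostly below 0 on the right (12 of 16 passed as lower).

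The comparison of TKO with WT addressed whether the basal level of these transcripts differed between the lines. Loss of the Tet enzymes and other differences between the lines cannot be told apart here. At 0 h Asns, Atf5, Chac1 and Trib3 were lower in TKO, and Atf4, Ddit3, Ddit4 and Sesn2 did not pass. That was 4 of 8 members lower and 0 higher, where 28.2% of 12463 genes passed as lower and 27.9% as higher, with a median of -0.24 against -0.019 over all genes. Without scaling, 4149 genes were higher and 2197 lower in place of 3472 and 3515. Asns had 238.4 and 241.3 scaled TPM in TKO against 338.7 and 348.0 in WT, or 69.9% (log2 difference -0.52, SE 0.0558, adjusted p = 8.91e-05). Chac1 stood at 67.8% (7.03 and 7.94 against 11.7 and 10.4, log2 difference -0.50, SE 0.117, adjusted p = 0.00586). Atf5 stood at 71.6% (6.15 and 6.50 against 8.17 and 9.49, log2 difference -0.42, SE 0.0804, adjusted p = 0.00216) and Trib3 at 78.4% (27.1 and 26.1 against 33.9 and 34.0, log2 difference -0.34, SE 0.0509, adjusted p = 0.000565). For all 4 genes both TKO libraries were below both WT libraries, but so they were for Atf4 and Sesn2, which did not pass. The share of all genes separated in this way was not counted. Each call on the 4 genes held without scaling and without any 1 library.

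Atf4 itself had 287.1 and 284.3 in TKO and 304.5 and 297.4 in WT, a difference of -0.075 (95% interval -0.209 to 0.060, adjusted p = 0.308), which was 0.021 without scaling and 0.059 with quantile normalisation. The intervals were -0.05 to 0.27 for Ddit3, -0.19 to 0.32 for Ddit4 and -0.29 to 0.02 for Sesn2. None of the 4 members that were lower in TKO at 0 h was lower by over 1.5-fold.

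At 4 h Asns and Atf5 were again lower in TKO, while Ddit3 and Atf4 were higher. This was 2 lower and 2 higher of 8, where 30.3% of 12463 genes passed as lower and 29.1% as higher. Without scaling, 5014 genes were higher and 2072 lower in place of 3622 and 3777. Asns stood at 64.5% of WT (256.0 and 285.2 against 421.4 and 417.3, log2 difference -0.63, SE 0.0558, adjusted p = 2.63e-05) and Atf5 at 61.1% (6.56 and 6.41 against 10.5 and 10.8, log2 difference -0.63, SE 0.0804, adjusted p = 0.000192). Ddit3 stood at 160% (8.77 and 9.55 against 5.77 and 5.66, log2 difference 0.60, SE 0.0710, adjusted p = 0.000136). These 3 calls held without either TKO 4 h library. Atf4 stood at 112% (223.1 and 197.8 against 184.6 and 191.3, log2 difference 0.16, SE 0.0591, adjusted p = 0.0429), and that call was lost without TKO 4 h replicate 1 (0.08, adjusted p = 0.16), WT 4 h replicate 1 (adjusted p = 0.225) or WT 4 h replicate 2 (0.0953). Chac1 did not pass (-0.24, 95% interval -0.51 to 0.02, adjusted p = 0.102), but did without WT 4 h replicate 1 (-0.40, adjusted p = 0.0259) and with quantile normalisation (-0.39, adjusted p = 0.0151). Trib3 had 24.1 and 23.0 in TKO and 23.9 and 24.6 in WT, which overlapped.

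**Figure D4:**
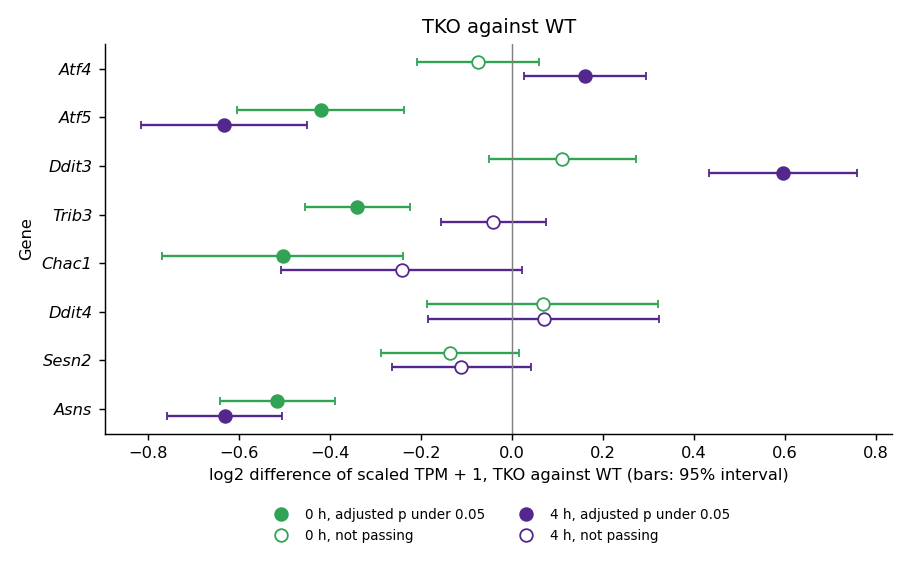
Log2 difference of scaled TPM + 1 between TKO and WT for the 8 members tested, at 0 h (green) and 4 h (purple), with 95% intervals from limma and filled points where the adjusted p was under 0.05. Asns and Atf5 lay below 0 at both times, Ddit3 was at 0.11 at 0 h and 0.60 at 4 h, and Ddit4 and Sesn2 did not pass at either time.

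The synthetases and the serine and one-carbon enzymes, which like Asns were higher in WT at 4 h, were mostly lower in TKO. Over all genes, 28.2% passed as lower and 27.9% as higher at 0 h, and 30.3% and 29.1% at 4 h. Of the 16 synthetases, 12 were lower and 1 higher at 0 h (median -0.28) and 14 lower and 1 higher at 4 h (median -0.41), or 12 lower and 1 higher without TKO 4 h replicate 1. Sars had 178.9 ± 1.84 scaled TPM in WT and 133.2 ± 1.02 in TKO at 0 h, whereas Gars, the exception, had 285.5 ± 4.85 and 372.8 ± 4.31. Of the 11 serine and one-carbon enzymes, 8 were lower and 1 higher at 0 h (median -0.30), with Mthfd1l, a mitochondrial folate enzyme, at 87.7 ± 2.92 in WT and 59.0 ± 1.44 in TKO. With any 1 library left out at 0 h, 10 to 12 synthetases and 4 to 6 of these enzymes were lower, the fewest enzymes without WT 0 h replicate 1. Among the partners and targets, Pck2 (-0.72, adjusted p = 3e-05) and Gpt2 (-0.66, adjusted p = 8.08e-06) were lower and Atf3 (0.80, adjusted p = 0.000244) and Cebpb (0.49, adjusted p = 0.0172) higher, in 4 lower and 4 higher of 11. Cebpb lost its call without TKO 0 h replicate 1 (adjusted p = 0.0866) or WT 0 h replicate 1 (0.108), and 4 or 5 genes of this list passed with any 1 library left out, in place of 8.

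Among the transporters, Slc1a5, a glutamine carrier, had 42.4 ± 2.85 in WT and 12.3 ± 0.474 in TKO at 0 h (log2 difference -1.71, adjusted p = 2.99e-07), and Slc7a3 was also lower (log2 difference -0.635, adjusted p = 2.18e-05). Slc38a2 was higher (157.9 ± 8.55 against 215.7 ± 0.206, log2 difference 0.45, adjusted p = 0.00418), in 5 lower and 2 higher of 8. Of the 8 kinases, phosphatase subunits and cofactors, Impact, an inhibitor of the kinase GCN2, was lower (-0.59, adjusted p = 1.09e-05) and Eif2ak3, which encodes PERK, higher (0.34, adjusted p = 0.00444). Of the 8 eIF2 and eIF2B subunits 4 were lower and 3 higher. Of the 12 ATF6 and IRE1 genes 5 were lower and 2 higher, with Ern1 at 0.63 (adjusted p = 0.000869) and Hsp90b1 at -0.37 (adjusted p = 0.00066). The counts in these lists stand against 28.2% of all genes as lower and 27.9% as higher. Without TKO 0 h replicate 1 or TKO 0 h replicate 2, 3 of the 7 calls among the subunits were made, 4 without WT 0 h replicate 2, and 3 of the 7 among the ATF6 and IRE1 genes without TKO 0 h replicate 1.

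Cell type markers also differed between the genotypes. The 5 ESC markers summed to 2154 to 2192 TPM in WT and 1510 to 1527 in TKO at 0 h. Of these sums Zfp42 made 478.2 to 512.7 and 123.0 to 125.8, and Pou5f1 1157.2 to 1176.4 and 975.3 to 1000.1. Of the 5, 4 passed as lower, against 28.2% of all genes. Nanog did not pass and was higher in both TKO libraries (44.1 and 48.4 against 40.2 and 36.9 TPM). At 4 h the 5 ESC markers summed to 2033 to 2069 and 1470 to 1488. At 0 h the 6 extraembryonic endoderm markers summed to 125.7 to 135.7 and 276.5 to 289.7, of which Sparc made 121.1 to 131.3 and 272.1 to 286.2. The endoderm factors Gata4, Gata6, Sox17 and Foxa2 were each at 2.09 TPM or less in the ribodepleted libraries. At 0 h Gata4 was lower in TKO (47.6% of WT, adjusted p = 0.00113 by limma). Gata6 and Sox17 were lower in both TKO libraries, while Foxa2 and Dab2 were higher in both. The 6 fibroblast markers summed to 8.12 to 8.50 in WT and 12.9 to 13.4 in TKO at 0 h, and to at most 14.5 in any library. The part of these markers in the differences of the stress response genes was not tested. In bulk RNA, fewer cells expressing a gene and less RNA per cell cannot be told apart.

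In WT cells, polyA libraries gave higher values than ribodepleted ones for most members. Of the 8 members that were also tested above, 7 were higher and 0 lower, where 40.2% of 12474 genes passed as higher and 40.8% as lower. Atf5 had 44.2, 46.1 and 48.4 scaled TPM in the polyA libraries and 8.62 and 10.0 in the ribodepleted ones, or 496% (log2 difference 2.20, SE 0.0656, adjusted p = 1.66e-08). Ddit4 stood at 374% (121.8 ± 6.26, n = 3, against 32.6 ± 4.63, n = 2, log2 difference 1.88) and Chac1 at 285% (33.2 ± 0.935 against 11.6 ± 0.931, log2 difference 1.44). Vldlr had 1.79, 1.92 and 1.70 against 0.642 and 0.647. It reached the minimum mean only through the polyA libraries and is not counted here, and in a fit without the filter its log2 difference was 0.78 (adjusted p = 0.000112). Trib3, Atf4, Ddit3 and Asns differed by 0.34, 0.32, 0.18 and 0.17, which was under 1.5-fold.

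Sesn2 had 65.4, 63.6 and 59.5 in the polyA libraries and 65.7 and 63.8 in the ribodepleted ones, which overlapped (-0.04, 95% interval -0.15 to 0.07, adjusted p = 0.425). The order of the genes changed between the preparations, since Atf5 and Ddit4 stood above Trib3 (45.4 ± 0.190) in polyA RNA, Atf5 by less than its spread. The call of Ddit3 was lost without WT 0 h replicate 1 (adjusted p = 0.0749). RNA selection and sequencing experiment cannot be told apart here.

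**Figure D5:**
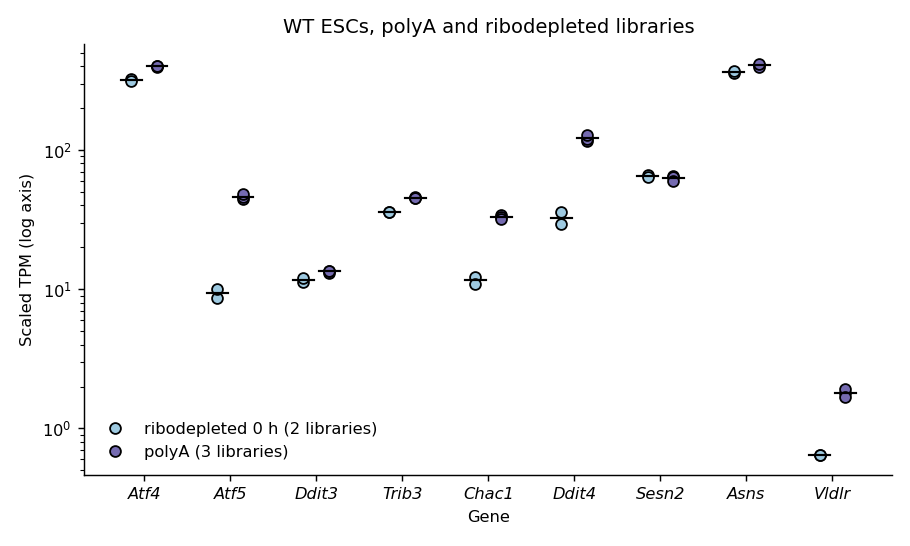
Scaled TPM of the 9 genes (logarithmic vertical axis) in the 2 ribodepleted WT 0 h libraries and the 3 polyA WT libraries, with 1 point per library and a line at each group's mean. Atf5, Ddit4 and Chac1 were higher in polyA RNA by over 1.5-fold, and Sesn2 overlapped.

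The profile of Atf4 over the 8 ribodepleted libraries was compared with that of each other tested gene by the root mean square difference of centred log2 values. The 5 nearest genes outside the members were Zfp105 (0.047), 4933407K13Rik (0.0524), Tbrg3 (0.0573), Phf17 (0.059) and Hnrnpa1 (0.0607). Among 12462 genes ranked by nearness, Trib3 was at 555, Ddit3 at 812, Sesn2 at 940, Ddit4 at 1134 and Chac1 at 1596, whereas Atf5 was at 10626 and Asns at 11248. The 2 members furthest from Atf4 were those that were higher in WT cells at 4 h. The libraries of that comparison also enter the distance, so this is not a separate result.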

How the data were processed

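RNA from mouse ESCs was sequenced in 11 libraries. The deposited values are TPM, which the authors computed per gene from HTSeq counts after quality control (FastQC, AfterQC), removal of rRNA and tRNA reads (Bowtie2), trimming (Trimmomatic) and STAR alignment to mm9 with RefSeq genes; versions and strand setting are not given in the sources used here. TPM gives shares, which do not show a change common to every transcript, and Rpph1 and Rmrp took 12.2 to 14.7% of ribodepleted TPM. Groups came from the sample titles.

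TPM of the 8 ribodepleted libraries was divided by median-of-ratios size factors, and 12463 genes with a mean above 1 were tested on the log2(scaled TPM + 1) scale in limma 3.58.1 (R 4.3.3, lmFit, eBayes with trend, 1 coefficient per group). The 3 polyA and 2 WT 0 h libraries were fitted separately (12474 genes). Tests were two-sided, with Benjamini-Hochberg adjustment over all tested genes. The study used DESeq2 on raw counts, which were not used here. Whole reads were recovered from TPM steps for 99.98% of genes above 0 in a library, to within a relative 1e-06, and served for depth and for limma voom as an alternative. The study describes the α-amanitin experiment as made in biological duplicate; for the polyA libraries p-values measure the spread between libraries. Replicates differed by more than sampling noise (chi-square per degree of freedom of 1.51 or more). Figures were drawn with matplotlib.

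The members and lists were chosen with earlier results of these data known. Genes named from a list were the 2 largest rises and 2 largest falls per comparison among those passing without overlap between libraries. The fit was tested on simulated data. Alternatives changed the scaling, pseudocount (0.1 and 5 TPM), filter, variance trend, 1.5-fold limit, replicate block and libraries used.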

Additional observations from a re-analysis of the deposited data

Results flagged for a closer look

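The 3 genes below stood on opposite sides of WT in TKO cells at the 2 times, in every library, and were picked for that. They were not the only ones. Lrp8, from the list of relatives of the members, did so too (-0.042 at 0 h and 0.138 at 4 h), as did Tbrg3 and 4933407K13Rik. The share of all genes that crossed in this way was not counted, and the unadjusted p-values below do not allow for the picking. Atf4 was lower in TKO than in WT at 0 h (285.7 ± 2.02 against 300.9 ± 5.02 scaled TPM, SD, n = 2) and higher at 4 h (210.5 ± 17.9 against 188.0 ± 4.73). The difference of the 2 log2 differences was 0.235 (unadjusted p = 0.0211, adjusted p = 0.662 by limma), and 0.154 without TKO 4 h replicate 1 (adjusted p = 0.72). At 0 h Atf4 did not keep its direction without scaling (0.021) or with quantile normalisation (0.059). Cth was higher in TKO at 0 h (133.0 ± 2.49 against 123.0 ± 3.93) and lower at 4 h (145.8 ± 4.55 against 155.2 ± 6.44), with a difference of -0.201 (unadjusted p = 0.0189, adjusted p = 0.662 by limma), and -0.164 without TKO 4 h replicate 1. With quantile normalisation it was -0.109. Eprs was higher in TKO at 0 h (332.3 ± 2.54 against 312.6 ± 15.1) and lower at 4 h (344.3 ± 3.03 against 360.1 ± 17.8), with a difference of -0.152 (unadjusted p = 0.0732, adjusted p = 0.678 by limma), and -0.156 without TKO 4 h replicate 1. It was -0.090 without scaling and -0.068 with quantile normalisation. None of the 3 passed over all genes. With groups of 2 and 3 libraries, single outlying libraries could not be tested.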

How the results depend on the processing

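Of the members' values under the alternatives, 637 kept direction and side of the threshold, 43 lost a call, 9 gained one and 21 changed sign with no call on either side; of the named pathway and Tet genes' values, 1376 kept both, 154 lost a call and 6, all of Tet3, changed sign without a call. Genes passing in WT at 4 h numbered 4695, but 262 with a change over 1.5-fold and 2911 with quantile normalisation, and 409 to 2937 with 1 library left out; members passing numbered 7, but 3 over 1.5-fold and 4 to 6 with 1 library left out. In TKO at 4 h, 33 genes and 1 member passed. The counts of genes and members were 102 and 2 without scaling, 728 and 2 with limma voom on recovered reads, 4 and 0 without the filter, 0 and 0 without the variance trend, 9 and 0 with only the groups compared, 20 and 0 over 1.5-fold, and 1 and 0 with a pseudocount of 0.1 TPM. They were 54 genes with a pseudocount of 5 TPM, 62 with quantile normalisation, and 0 to 2801 genes and 0 to 6 members with 1 library left out. For the interaction, 0 genes passed, but 4 without the filter and 0 to 8 with 1 library left out. Over 1.5-fold, 1984 genes and 0 members differed between TKO and WT at 0 h, 2099 genes at 4 h, and 4382 genes between polyA and ribodepleted RNA. The last included the members Atf5, Ddit4 and Chac1. Vldlr was also over that limit, but it reached the minimum mean only through the polyA libraries and is not counted as a member here. The cause of these moves was not tested, apart from the smaller sets that the fold limit and the left-out libraries give by construction. Without scaling the median of all genes moved from 0.028 to -0.11 in WT at 4 h and from -0.005 to 0.14 between TKO and WT at 4 h. With the replicate number as a replicate block, 4773 genes passed in WT at 4 h and 28 in TKO, and no member's call changed. Same-numbered libraries did not deviate together (correlations of -0.044 to 0.12). With 2 libraries per group this cannot exclude that they were handled as pairs. Ddit3 rested on 66 to 165 reads and Vldlr on 53 to 122. The changes of sign were as follows. Without scaling, Atf5 in TKO at 4 h was -0.053, Atf4 between TKO and WT at 0 h 0.021, Trib3 and Sesn2 between TKO and WT at 4 h 0.110 and 0.043, and Sesn2 in polyA RNA 0.060. With quantile normalisation, Atf4 at 0 h was 0.059, Sesn2 in polyA RNA 0.033, the Ddit4 interaction -0.032 and Tet3 -0.164 at 0 h and -0.165 at 4 h. Without the filter, the Ddit4 interaction was -0.004 and Tet3 at 0 h -0.020, and with voom Tet3 at 0 h was -0.003. With 1 library left out, the Ddit4 interaction ran from -0.138 to 0.143, the Sesn2 interaction from -0.041 to 0.108, Atf5 in TKO from -0.001 to 0.066, Ddit4 between TKO and WT from -0.079 to 0.203 at 0 h and -0.052 to 0.176 at 4 h, Sesn2 in polyA RNA from -0.073 to 0.004 and Tet3 at 0 h from -0.037 to 0.034.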

Other observations

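Some close relatives of the members were measured alongside them. In WT at 4 h, Trib1, a relative of Trib3, went from 4.33 ± 0.694 to 2.89 ± 0.138 scaled TPM (SD, n = 2, log2 change -0.45, adjusted p = 0.0198). Sesn3, a relative of Sesn2, rose from 14.4 ± 0.62 to 17.45 ± 0.0585 (log2 change 0.26, adjusted p = 0.0129), whereas Sesn2 itself was lower. The call of Trib1 was lost with quantile normalisation (adjusted p = 0.0588) and without WT 0 h replicate 2 (0.106), WT 4 h replicate 1 (0.106) or WT 4 h replicate 2 (0.0571). The call of Sesn3 was lost without scaling (adjusted p = 0.239) and without WT 0 h replicate 1 (0.0784) or WT 4 h replicate 1 (0.0652).

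In TKO against WT at 0 h, Sesn3 (21.2 ± 0.736 against 14.4 ± 0.62, adjusted p = 0.000117) and Ddit4l (4.58 ± 0.184 against 2.99 ± 0.238, adjusted p = 0.0042) were higher. Chac2, a relative of Chac1, was lower (5.74 ± 0.264 against 8.12 ± 0.263, adjusted p = 0.00695), as was Chac1.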
